A study of Mus musculus with 5 samples.

Results

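The levels of 10 imprinted genes that act on growth were followed through 5 single-cell RNA libraries of mouse epiblast stem cells (EpiSCs) on their way to mesoderm. The 10 genes, Meg3, Rian, Mirg, Dlk1, Peg3, Peg10, Cdkn1c, Phlda2, Plagl1 and Grb10, were picked by symbol from the 32285 genes counted in each library, each symbol matched 1 gene, and they lie in 6 imprinted loci. They took 548276 of the 321559590 unique molecular identifiers (UMIs, each standing for 1 captured RNA molecule) in 10653 retained cells.

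The study asked how the dose of fibroblast growth factor (FGF) sets what EpiSCs become. Cells of 1 wild-type EpiSC line, grown from the epiblast of a single embryo of 129 background, were differentiated for 3 days. All 5 cultures received 1 µM Chi (a Wnt pathway agonist) and 8 ng/ml BMP4. They differed in FGF signalling: 1 received 30 nM of the FGF receptor inhibitor AZD4547 (FGFRi; its label gives no FGF2 dose), and the others received 0, 0.75, 3 or 12 ng/ml FGF2. Values are given for the libraries in that order. Each condition was 1 library, so no difference between conditions has a replicate check and no p-value is given. Levels are counts per 1000000 UMIs of the retained cells (CPM), and every interval is an exact 95% interval for counting error alone. The libraries held 1701, 1696, 2725, 2125 and 2406 retained cells with 47824660 to 81538748 UMIs, median UMIs per cell were 24408 to 29661.5, and a gene with no UMI in a library would have had a level of at most 0.0368 to 0.0627 CPM (3 counts). Only 7 barcodes occurred in more than 1 library, in 14 cells. The summed level of 5 primitive streak genes was 3.55 CPM with FGFRi and 55.0, 182, 397 and 416 CPM from 0 to 12 ng/ml FGF2, while 6 mesenchyme and extraembryonic mesoderm genes summed to 3979, 1007, 289, 116 and 144 CPM.

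An imprinted gene is transcribed mainly from the copy inherited from 1 parent, because the other copy carries DNA methylation or repressive chromatin laid down at an imprinting control region. Genes read from the maternal copy, such as Cdkn1c, Phlda2 and Grb10, mostly restrain growth of the fetus or placenta, and genes read from the paternal copy, such as Dlk1, Peg3, Peg10 and Plagl1, include many that favour it. In the Dlk1-Dio3 locus the maternal copy gives a string of noncoding RNAs (Meg3, Rian, Mirg) and the paternal copy gives Dlk1, and cultured pluripotent stem cells are known to lose transcription of the maternal RNAs. The counts used here do not separate the parental copies, so imprinting itself was not measured.

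The Dlk1-Dio3 locus lies on chromosome 12. In GRCm38 coordinates (GENCODE annotation), Dlk1 spans 109452823 to 109463336, the long noncoding RNA Meg3 spans 109541001 to 109571726, Rian spans 109603940 to 109661716 and Mirg spans 109729764 to 109749460, all on the plus strand. The 208460 bases from the start of Meg3 to the end of Mirg hold 57 of the 1005 miRNA hairpins in RefSeq (GRCm38.p6), of which 1 lies within Meg3, 3 within Rian and 14 within Mirg. The miRNAs themselves were not counted by this assay, which reads polyadenylated RNA. Because the 3 host RNAs were found in the same cells, the following mature miRNAs of the hosts are shown, with the seed (bases 2 to 8, the part that pairs with targets) in capitals.
mmu-miR-770-5p (Meg3): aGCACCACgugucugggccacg
mmu-miR-370-3p (Rian): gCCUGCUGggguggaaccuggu
mmu-miR-134-5p (Mirg): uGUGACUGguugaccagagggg
mmu-miR-410-3p (Mirg): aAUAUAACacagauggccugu
mmu-miR-453 (Mirg): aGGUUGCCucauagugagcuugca
mmu-miR-496a-5p (Mirg): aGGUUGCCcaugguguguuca
Among the 35 mature miRNAs of the 3 hosts, the seed of the last pair was the only one that occurred more than once.

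The starts of Meg3 and Rian are shown next because their RNAs were found in the same cells, and the start of Dlk1 because its RNA was only weakly tied to them. Each window runs from 250 bases before to 50 bases after the RefSeq start, on the plus strand of GRCm38.p6, and capitals mark the CRE motif TGACGTCA, the letters bound by CREB-type factors.
Meg3, chr12:109540746-109541045: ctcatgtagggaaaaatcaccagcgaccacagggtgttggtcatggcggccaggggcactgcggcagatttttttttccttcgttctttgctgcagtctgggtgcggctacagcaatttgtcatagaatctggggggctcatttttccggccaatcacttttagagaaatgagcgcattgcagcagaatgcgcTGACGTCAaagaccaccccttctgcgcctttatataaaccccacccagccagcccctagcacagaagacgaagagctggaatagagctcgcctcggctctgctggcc
Rian, chr12:109603695-109603994: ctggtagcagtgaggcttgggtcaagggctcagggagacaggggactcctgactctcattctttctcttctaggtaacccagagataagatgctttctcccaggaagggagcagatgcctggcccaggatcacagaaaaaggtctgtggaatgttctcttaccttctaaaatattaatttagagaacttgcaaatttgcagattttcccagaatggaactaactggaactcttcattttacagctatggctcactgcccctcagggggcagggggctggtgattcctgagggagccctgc
Dlk1, chr12:109452573-109452872: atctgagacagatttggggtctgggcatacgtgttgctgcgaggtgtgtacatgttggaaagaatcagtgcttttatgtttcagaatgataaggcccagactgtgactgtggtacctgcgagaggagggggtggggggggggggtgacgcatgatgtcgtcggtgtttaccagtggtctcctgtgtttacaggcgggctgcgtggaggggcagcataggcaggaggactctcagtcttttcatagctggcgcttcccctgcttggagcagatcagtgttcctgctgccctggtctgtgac
RefSeq lists a second Meg3 start, whose window (chr12:109545148-109545447, not printed) held 1 CpG and neither motif. Searched on both strands, the Meg3 window shown held 13 CpG, the CRE motif and 2 overlapping TATAAA matches, the Dlk1 window held 9 CpG and the Rian window 0 CpG. The median over 32851 mouse windows of this length was 7 CpG, and 1.79% of them held TGACGTCA and 13.6% TATAAA. Of the 8 genes with an entry in this table, the CRE motif also occurred at Peg3. RefSeq's windows for Mirg, Plagl1, Phlda2 and the others are not printed, and Peg10 and Cdkn1c had no entry.

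Meg3, the long noncoding RNA at the head of the maternal RNAs, had 236, 113, 75.02, 68.7 and 86.5 CPM in the 5 libraries. The level was highest with FGFRi and lowest at 3 ng/ml FGF2, and from 3 to 12 ng/ml it was 1.26 times as high (1.21 to 1.31). Between FGFRi and no FGF2 the ratio was 0.480 (0.466 to 0.495). Rian, which hosts small nucleolar RNAs and miRNAs, had 57.9, 33.0, 27.3, 24.5 and 28.5 CPM, which put the libraries in the same order as Meg3. Its ratio between FGFRi and no FGF2 was 0.571 (0.538 to 0.605). Mirg, the miRNA host at the far end, was rare, with 8.68, 4.93, 4.53, 3.65 and 4.13 CPM. Its level at 0.75 ng/ml was within counting error of that without FGF2, with a ratio of 0.918 (0.784 to 1.08). All 3 RNAs were thus lowest at 3 ng/ml FGF2, although for Mirg the ratio from 3 to 12 ng/ml, 1.13 (0.948 to 1.35), was within counting error. They did not move in strict proportion: for each 100 Meg3 UMIs there were 24.6, 29.2, 36.3, 35.6 and 33.0 Rian UMIs and 3.68, 4.36, 6.03, 5.32 and 4.77 Mirg UMIs.

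Dlk1, a membrane protein with EGF-like repeats that is read from the paternal copy, had 29.7, 9.80, 2.70, 2.40 and 2.40 CPM. Its ratio was 0.330 (0.299 to 0.364) from FGFRi to no FGF2 and 0.275 (0.234 to 0.322) from 0 to 0.75 ng/ml, and between 0.75 and 12 ng/ml neighbouring doses differed by no more than counting error. Its UMIs per 100 Meg3 UMIs went from 12.6 and 8.66 to 3.60, 3.49 and 2.78. From FGFRi to 0.75 ng/ml this was against the direction of Rian and Mirg, and from 0.75 to 12 ng/ml their UMIs per 100 Meg3 UMIs fell as well. Another protein gene of the paternal copy, the retrotransposon-derived Rtl1, and the iodothyronine deiodinase gene Dio3 with its antisense RNA Dio3os were each under 1 CPM in all 5 libraries.

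**Figure D1:**
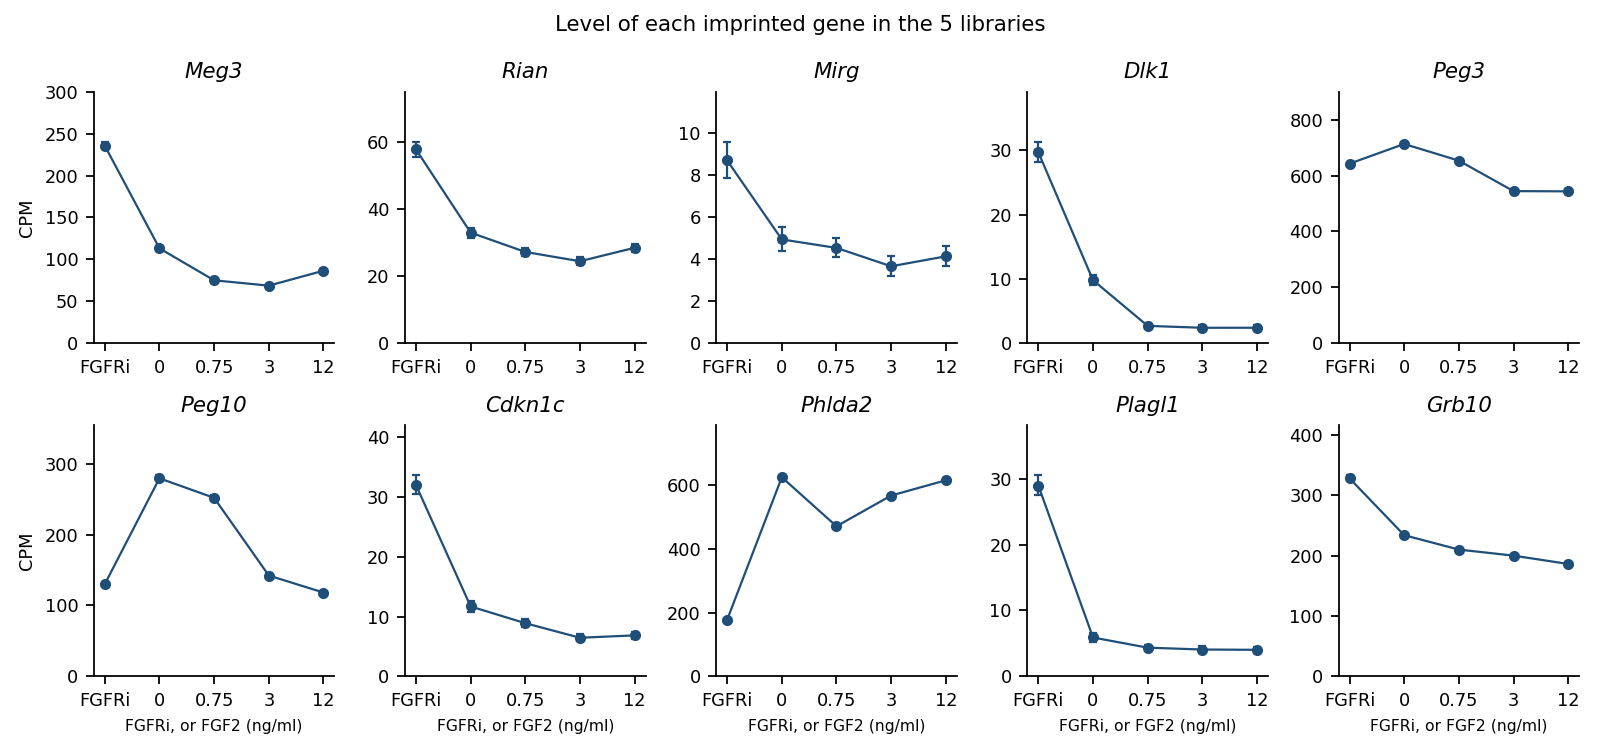
Each panel plots the level of 1 gene in CPM (linear axis from 0, its own scale in each panel) against the library, FGFRi first and then 0, 0.75, 3 and 12 ng/ml FGF2; points are the pooled level of 1 library and bars are 95% counting intervals. Meg3, Rian, Mirg, Dlk1, Cdkn1c, Plagl1 and Grb10 stand highest in the FGFRi library, and Phlda2 stands lowest there, at 177 CPM.

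Meg3 was not detected in most cells, and its UMIs were concentrated in the others, most strongly with FGFRi. To compare cells of different depth, each cell was thinned to 10000 UMIs, which left out 94 shallower cells. A Meg3 UMI was then found in 40.6% (38.2 to 43.0), 25.3%, 23.4%, 23.6% and 29.6% of cells, and in 46.7%, 31.9%, 30.5%, 31.3% and 36.9% before thinning. If the same number of Meg3 UMIs had been spread over cells evenly (a Poisson spread), 91.5%, 64.4%, 49.4%, 47.9% and 57.3% of thinned cells would have held one. In the FGFRi library 59.4% of cells had 0 Meg3 UMIs of 10000, against 8.46% under the even spread, and 7.82% had 10 or more, against 0.0252%. At 12 ng/ml FGF2 10.1% of cells had 1 Meg3 UMI and only 0.334% had 10 or more. The mean count in thinned cells that held Meg3 was 6.08, 4.08, 2.91, 2.76 and 2.88 UMIs. The Fano factor (variance over mean) of Meg3 was 8.40, 7.13, 4.44, 3.97 and 3.66, and only 0.917% to 1.62% of genes of at least 50 CPM in a library had a larger one. Such a spread was not particular to Meg3. Peg10 had 5.70, 7.32, 7.37, 5.52 and 4.87, above Meg3 in every library but FGFRi. Peg3 was above Meg3 with FGFRi (8.78) and at 0.75 ng/ml and below it in the others, and Phlda2 was above it in every library. With FGFRi 54.6% of cells had 0 Peg10 UMIs of 10000, against 27.6% under the even spread. Grb10, by contrast, lay nearer an even spread: 91.9% of FGFRi cells held a UMI, against 96.7% under it. There was no cell class known to lack Meg3 that could give the share due to free RNA.

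The RNAs were also missing from many deeply read cells. Among the 1176, 1422, 2308, 1870 and 2089 cells with at least 20000 UMIs, all UMIs considered, 46.3% (43.5 to 49.2), 60.3%, 62.8%, 64.0% and 58.7% had no UMI of Meg3, Rian or Mirg. Those cells had median depths of 28832, 30674, 28439, 29436 and 28399.5 UMIs. At the median depth of such deep cells, an even spread would have left 0.0188%, 0.641%, 3.95%, 5.23% and 3.11% with none of the 3.

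The 3 noncoding RNAs were found in the same cells. Among cells with a Meg3 UMI, 64.1% (60.4 to 67.8), 57.2%, 47.3%, 48.7% and 48.1% also held Rian, and among cells without one 3.85% (2.74 to 5.25), 2.63%, 4.15%, 3.47% and 4.09% did. Read the other way, Meg3 was found in 91.9%, 88.0%, 77.7%, 81.3% and 83.2% of cells with Rian and in 20.3%, 12.97%, 14.4%, 14.1% and 18.5% of those without. Mirg was found in 16.3%, 12.0%, 11.8%, 10.4% and 10.0% of cells with Meg3 and in 2.84%, 1.28%, 1.16%, 0.743% and 0.829% of cells without. Pearson's r was taken over single cells of 1 library, on the log of 1 plus the thinned count. It was 0.734, 0.717, 0.612, 0.601 and 0.587 for Meg3 and Rian, and 0.239 to 0.304 for Meg3 and Mirg. These are descriptions over 1662 to 2706 cells that share a library. Dlk1, on the other side of the locus, was tied to them only weakly: 16.9%, 8.71%, 2.52%, 2.20% and 3.10% of cells with Meg3 held it, against 12.8%, 5.50%, 1.88%, 1.67% and 2.01% of cells without. Its r was 0.009 to 0.089 with Meg3 and 0.027 to 0.072 with Rian.

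**Figure D2:**
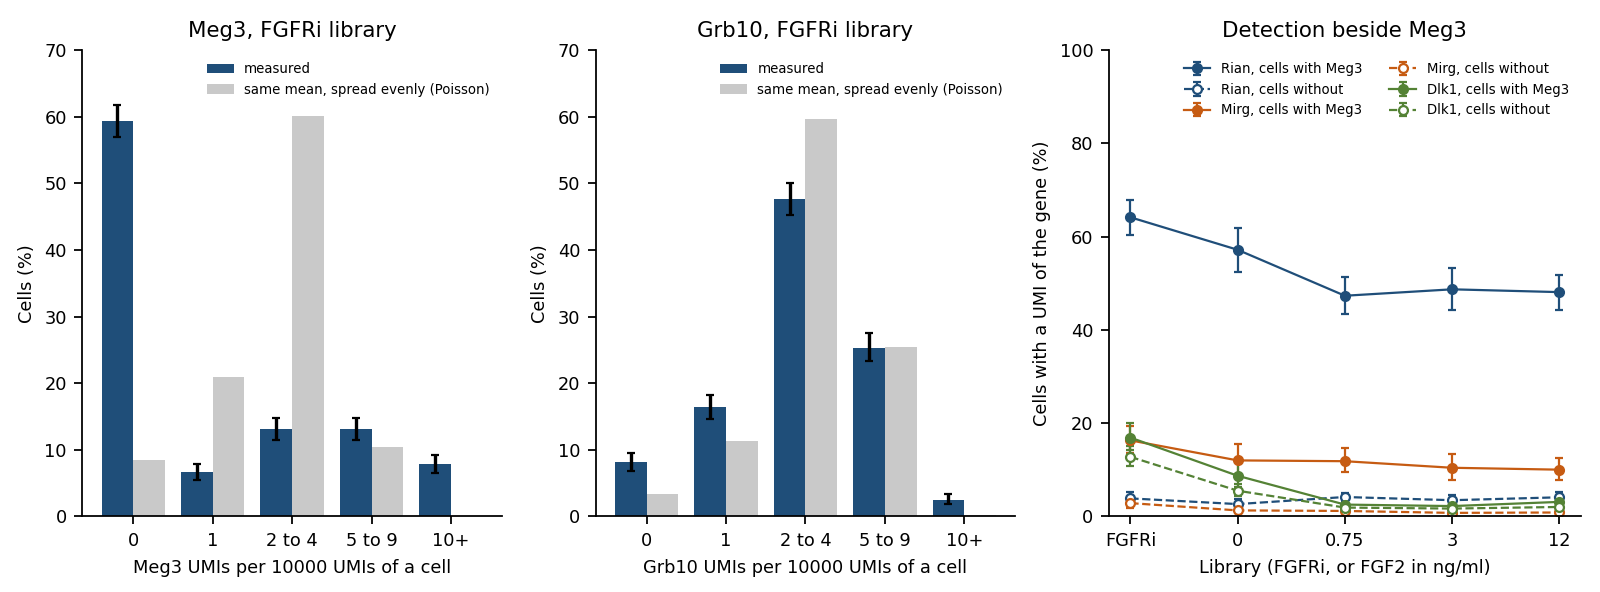
The left panels give the share of cells (%) by their number of Meg3 or Grb10 UMIs per 10000 in the FGFRi library, measured (dark bars, 95% binomial intervals) and for an even Poisson spread of the same mean (grey bars); the right panel gives the share of cells with a Rian, Mirg or Dlk1 UMI, by library, in cells with (filled) and without (open) a Meg3 UMI. Measured Meg3 piles up at 0 (59.4% of cells) while Grb10 lies nearer the grey bars, and Rian is found in 47.3% to 64.1% of cells with Meg3 and in at most 4.15% of the others.

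Splitting cells by Meg3 was chosen after its spread had been seen, so what follows describes the groups and supports nothing further. In pooled UMIs, the Rian level of cells with Meg3 was 33.0, 28.5, 16.9, 15.4 and 14.7 times that of cells without, and the Mirg level 5.64, 9.71, 10.7, 14.3 and 13.5 times. Dlk1 differed far less, with ratios of 1.05 (0.945 to 1.17), 1.08 (0.891 to 1.30), 1.30, 1.43 and 1.52, of which only the interval at 12 ng/ml and that at 3 ng/ml lay above 1. Grb10 ratios were 1.15, 1.14, 1.13, 1.08 and 1.07. Cdkn1c, the cyclin-dependent kinase inhibitor of another locus, was higher in cells with Meg3 in every library, by 2.51, 1.94, 2.33, 1.28 and 1.97 times. Peg10 was lower in them in every library, at 0.654, 0.671, 0.896, 0.791 and 0.754 of the level in cells without, and so was the epithelial cadherin gene Cdh1, at 0.852, 0.742, 0.798, 0.684 and 0.756. Median depths of cells with and without Meg3 were 23917 and 25404 UMIs with FGFRi and 28193 to 32255 and 27068 to 29063 UMIs in the other libraries. Within cells that held Meg3 the level was 584, 394, 273, 251 and 270 CPM, a ratio of 0.674 between FGFRi and no FGF2, in cells picked for holding the RNA. The pooled level alone cannot tell fewer cells with the RNA from less RNA per cell. Both measures were lower without FGF2 than with FGFRi, with a Meg3 UMI in 25.3% and 40.6% of thinned cells. The share of cells with a UMI also depends on the level per cell.

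The 50 CPM rule used from here on counts a gene where it reached 50 CPM in either library of a pair and its levels differed at least 2-fold. Between FGFRi and no FGF2, 3 of the 6 genes that reached 50 CPM passed it, beside 6.46% of all 3283 genes of that level. Meg3 was the 1 of 6 that was lower without the inhibitor (background 4.6%), and Peg10 and Phlda2 were the 2 of 6 that were higher (background 1.86%). With the floor set at 10 CPM, 6 of 9 passed in either direction (background 7.99%), and the 4 of 9 that were lower (background 5.38%) were Meg3, Dlk1, Cdkn1c and Plagl1. Of these, Dlk1 and Plagl1 reached 10 CPM only in the FGFRi library, so the floor let them in through the library where they were high. The members were chosen with earlier results of these data known, so the counts beside their backgrounds describe the members and support nothing further. From 0 to 12 ng/ml FGF2, 1 of 5 passed (background 4.14%), Peg10, which was lower (background 2.93%). At 10 CPM the count was 1 of 7, again Peg10 and again lower (backgrounds 5.91% in either direction and 4.04% lower). No member passed between neighbouring FGF2 doses: 0 of 5 from 0 to 0.75 ng/ml (background 1.51%), 0 of 5 from 0.75 to 3 (background 0.432%) and 0 of 5 from 3 to 12 (background 0%). Dlk1 had 9.80 CPM without FGF2, under both floors, so these counts leave it out although it differed more than 2-fold. Its ratio was 0.275 (0.234 to 0.322) from 0 to 0.75 ng/ml and 0.245 (0.205 to 0.291) from 0 to 12 ng/ml. The median log2 ratio of the members of at least 50 CPM was -0.17 from FGFRi to no FGF2, against 0.01 over all genes of that level, and -0.38 from 0 to 12 ng/ml, against 0.03.

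**Figure D3:**
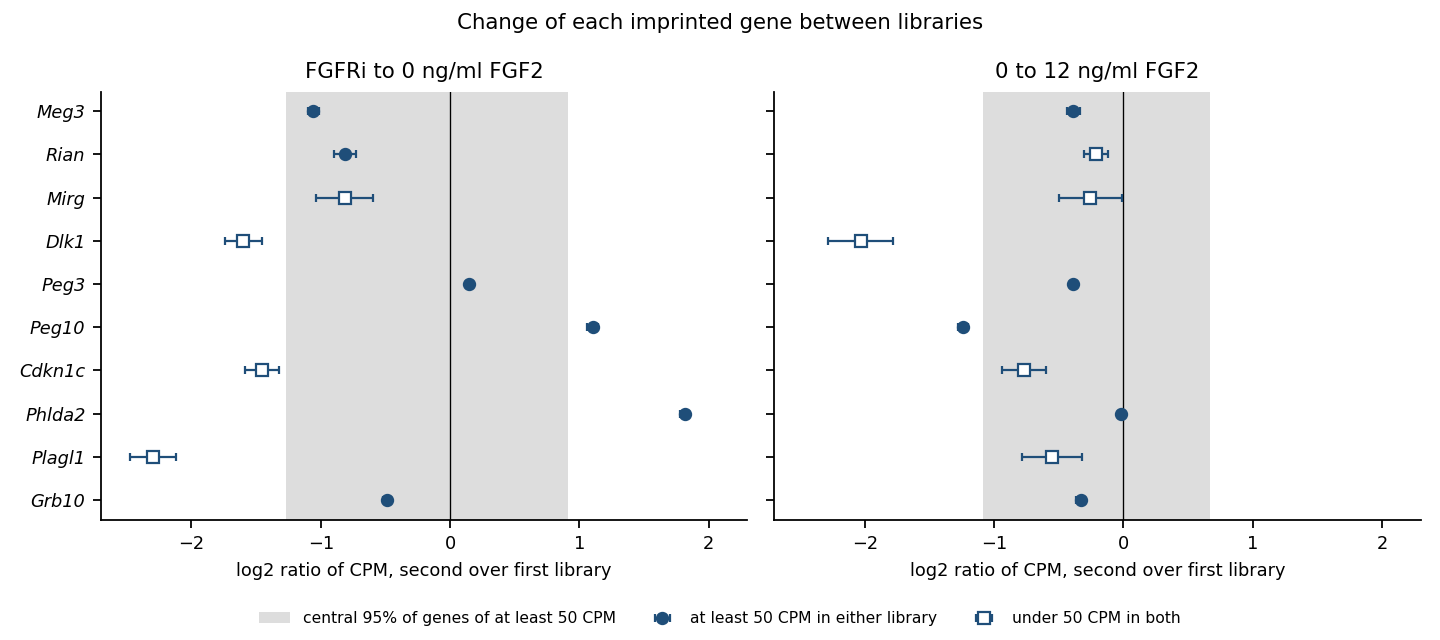
Points give the log2 ratio of CPM of each gene between FGFRi and no FGF2 (left) and between 0 and 12 ng/ml FGF2 (right), second library over first, with 95% counting intervals; filled points reached 50 CPM in either library, and the grey band holds the central 95% of all genes that did. Among the filled points, Phlda2 and Peg10 lie right of the band in the left panel, whose edges are -1.27 and 0.91, and Peg10 lies left of the band in the right panel, whose edges are -1.08 and 0.67.

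Cdkn1c and Phlda2 lie near each other on chromosome 7 (143458339 to 143461050 and 143501545 to 143503150, both on the minus strand). They belong to the Kcnq1 locus, where both are read from the maternal copy. Their levels did not follow each other. Cdkn1c, which holds back the cell cycle, had 32.0, 11.7, 8.89, 6.45 and 6.85 CPM, and Phlda2, which restrains growth of the placenta, had 177, 624, 470.2, 566 and 614 CPM. Cdkn1c was thus highest and Phlda2 lowest under the inhibitor. From FGFRi to no FGF2 the Cdkn1c ratio was 0.365 (0.333 to 0.400) and the Phlda2 ratio 3.52 (3.44 to 3.61). For each 100 Phlda2 UMIs there were 18.1 Cdkn1c UMIs with FGFRi and 1.87, 1.89, 1.14 and 1.12 in the others. From 0 to 12 ng/ml the pooled Phlda2 level was almost level, with a ratio of 0.985 (0.971 to 0.999), while its spread over cells was not.

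Phlda2 was found in 29.2% (27.0 to 31.4), 59.0%, 68.3%, 77.7% and 84.9% of thinned cells, a share that was larger at each step up the series. Before thinning the shares were 46.0%, 78.3%, 83.1%, 89.8% and 93.7%. Its Fano factor went the other way, at 103, 84.1, 26.8, 12.8 and 7.79, and no gene of at least 50 CPM had a larger one in the FGFRi library or without FGF2, against a median over such genes of 1.10 to 1.17. The highest count in a single thinned cell was 297, 281, 181, 134 and 60 UMIs of 10000. Without FGF2 a small number of cells held most Phlda2 RNA, and with FGF2 it was found at moderate counts in most cells.

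Cells with at least 20 Phlda2 UMIs of 10000, a limit set after the counts had been seen, numbered 27 (1.62%), 111 (6.61%), 120 (4.43%), 104 (4.92%) and 109 (4.55%). They held 70.4%, 73.3%, 39.6%, 28.4% and 20.5% of the Phlda2 UMIs of their library. The limit separated cells better at one end of the series than at the other: 10, 65, 213, 283 and 431 cells had 10 to 19 UMIs, 6, 41, 81, 86 and 98 had 20 to 39, and 21, 70, 39, 18 and 11 had 40 or more. Median depth was 25570, 29001, 27783, 31301.5 and 28205 UMIs in the cells above the limit and 24666, 29882, 27595.5, 28389 and 27451.5 in the rest, and no doublet filter was applied.

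Genes of the marker and imprinted lists were then read in the same cells, and several were higher there in the libraries with FGFRi or without FGF2. Peg10 was 10.4 times (9.68 to 11.2), 4.90, 3.19, 1.83 and 0.850 times its level in the rest of the library, and Peg3 2.65, 1.99, 1.86, 1.44 and 1.32 times. Ascl2, a neighbour of Phlda2 in the same imprinted locus and a transcription factor of the trophoblast lineage, was 317 times higher with FGFRi (222 to 464; 183 UMIs in those cells and 37 in all others), and 35.6, 24.1, 12.3 and 2.59 times in the other libraries. H19, an imprinted noncoding RNA of the adjoining Igf2 locus, was 22.2, 20.2, 9.82, 3.76 and 6.67 times higher, and Plac1, a gene of the placenta, 11.4, 22.6, 12.0, 5.39 and 1.21 times. The transcription factor Tfap2c was 18.9, 6.82, 2.10, 1.01 and 0.640 times, and Gata3 3.49, 3.19, 3.54, 2.34 and 1.58 times. Hand1, which trophoblast giant cells and extraembryonic mesoderm both use and which had the most UMIs of the trophoblast list with FGFRi and without FGF2, was at 0.731 (0.505 to 1.02) with FGFRi and at 2.58, 4.65, 3.96 and 2.26 times in the others. Of the remaining trophoblast genes, Elf5 had 1 UMI in the FGFRi cells above the limit and 1 in all the rest, and Tpbpa had no UMI in 4 libraries and 8 UMIs, all in cells above the limit, at 0.75 ng/ml. Sox17 was also higher in these cells, at 115 times with FGFRi (34.7 to 438, 9 UMIs against 5) and 16.5 times without FGF2, while its endoderm partner Foxa2 had 0 UMIs in the cells above the limit in both libraries. The 6 endoderm genes summed to only 0.627 CPM with FGFRi and 3.56 CPM without FGF2, so the Foxa2 count with FGFRi says little. No cell type name is given to these cells.

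At the upper doses the cells above the limit had other companions. Mesp1, a transcription factor of early mesoderm leaving the primitive streak, was 2.21, 2.83, 7.60 and 4.84 times higher in them from 0 to 12 ng/ml, and under FGFRi it had 0 UMIs in those cells. The 5 primitive streak genes summed to only 3.55 CPM in the FGFRi library, so that 0 says little. The others of the 5 are not given for these cells, so whether they go the same way as Mesp1 is not shown. Mesp1 alone gives these cells no streak or mesoderm character. Meg3 had 1 UMI in the 27 FGFRi cells (ratio 0.0057, 0.00015 to 0.032) and ratios of 0.129, 0.676, 1.77 and 1.53 in the other libraries. Cdkn1c had 1 UMI in the same 27 cells (ratio 0.042, 0.0011 to 0.235), and ratios of 1.91, 4.50, 3.12 and 3.54 from 0 to 12 ng/ml. With FGFRi only 14.1% of all cells held a Cdkn1c UMI, and the top 5% of thinned cells held 83.5% of its UMIs. The counting interval leaves out that spread between cells, so 27 cells say little about Cdkn1c. The mesenchymal cadherin gene Cdh2 ran from 0.0156 with FGFRi (1 UMI) and 0.198 without FGF2 to 1.20 and 1.14 at 3 and 12 ng/ml, and Cdh1 from 1.54 and 1.47 to 0.805 and 0.489.

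**Figure D4:**
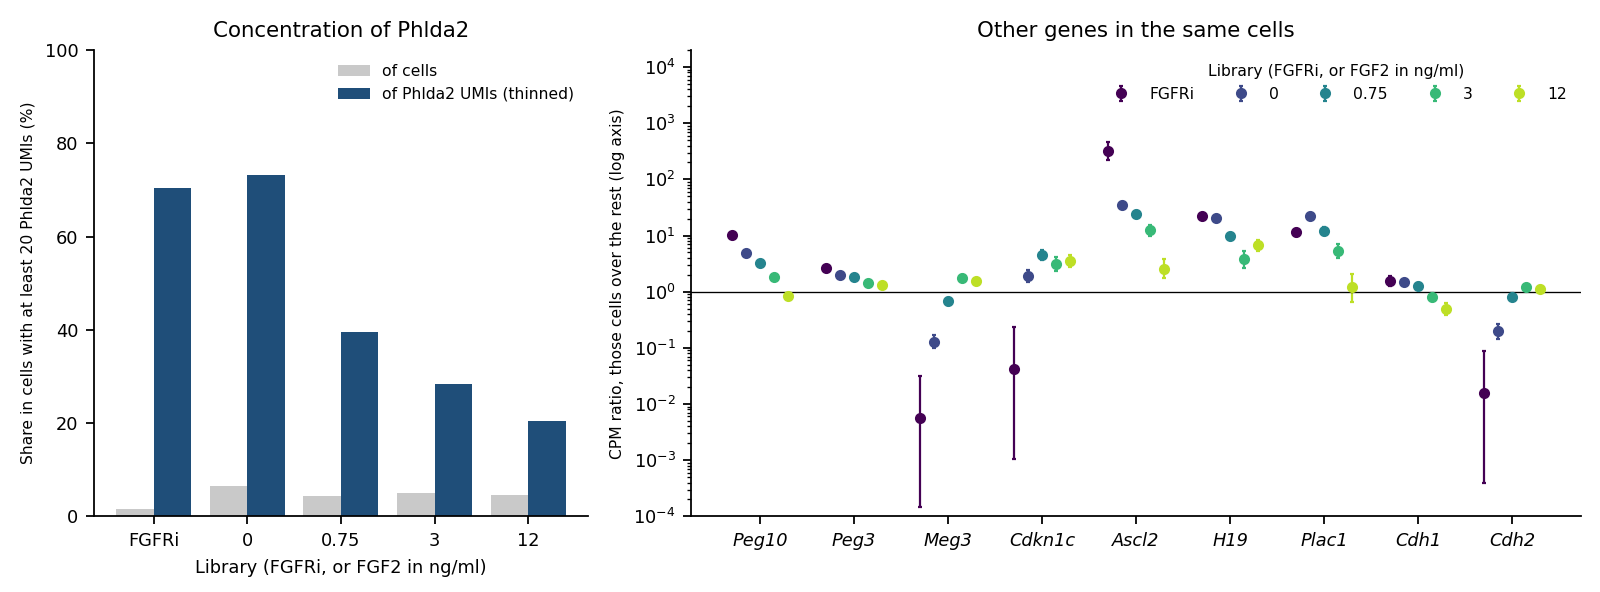
The left panel gives, for each library, the share (%) of cells with at least 20 Phlda2 UMIs of 10000 (grey) and the share of all Phlda2 UMIs that they held (dark); the right panel gives, on a log axis, the CPM ratio of other genes in those cells over the rest, by library, with 95% counting intervals and a line at a ratio of 1. In the FGFRi library 1.62% of cells held 70.4% of Phlda2 UMIs and Ascl2 was 317 times higher in them, and at 12 ng/ml FGF2 4.55% held 20.5% and the Ascl2 ratio was 2.59.

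Without the cells above the limit, Phlda2 had 57.0 CPM with FGFRi, 192 CPM without FGF2 and 517 CPM at 12 ng/ml. The ratio from FGFRi to no FGF2 was then 3.37, close to that over all cells, and the ratio from 0 to 12 ng/ml was 2.69, where over all cells it had been 0.985. The limit itself removes cells by their Phlda2 count, so these levels are a description of the remaining cells.

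The cadherins Cdh1 and Cdh2 split the cells further: Cdh1 marks epithelial cells and Cdh2 marks cells that have gone through the transition to mesenchyme. Cells with a thinned UMI of Cdh1 and none of Cdh2 numbered 557, 672, 900, 387 and 358, and those with Cdh2 and no Cdh1 numbered 569, 418, 945, 1037 and 1248. Such classes rest on few UMIs, and the share of cells with neither or both is left aside here. Phlda2 had 337, 1015, 519, 505 and 378 CPM in Cdh1-only cells, and 67.4, 276, 433, 643 and 732 CPM in Cdh2-only cells. Its ratio of Cdh1-only over Cdh2-only cells thus passed from 5.01 (4.69 to 5.35) and 3.68 (3.56 to 3.81) through 1.20 to 0.786 and 0.516 (0.500 to 0.533). Between 0 and 12 ng/ml Phlda2 was 0.372 times (0.360 to 0.385) its level in Cdh1-only cells and 2.65 times (2.57 to 2.75) in Cdh2-only cells. This rested on the cells of at least 20 Phlda2 UMIs. With them left out, Cdh1-only cells had 174 and 296 CPM at 0 and 12 ng/ml, a ratio of 1.70 (1.62 to 1.78) in the opposite direction, and Cdh2-only cells had 245 and 624 CPM (2.55 times, 2.45 to 2.64). The ratio between classes was then 3.38, 0.710, 0.608, 0.555 and 0.474. Those cells were removed by their own Phlda2 count, which lowers the class that holds most of them: without FGF2 75 of the 111 were Cdh1-only and 6 Cdh2-only. With FGFRi 20 of the 27 were Cdh1-only, and at 12 ng/ml 11 of 109 were Cdh1-only and 68 Cdh2-only.

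Cdkn1c was found in 9.99%, 7.03%, 5.62%, 3.83% and 4.42% of thinned cells, and differed little between cadherin classes with FGFRi, with a ratio of 1.07 (0.950 to 1.21). In the FGFRi library it was 2.19 times as high in cells with the smooth muscle actin gene Acta2 as in cells without, and in the other libraries that ratio was 0.974, 1.02, 0.936 and 0.575. In cells with a UMI of the proliferation genes Mki67 or Top2a it was at 0.608, 0.843, 0.660, 0.460 and 0.795 of the level in other cells, below 1 in all 5 libraries, with intervals that reached 1 without FGF2 (0.689 to 1.04) and at 12 ng/ml (0.586 to 1.10). Such cells were deeper, with medians of 25678 to 30926 UMIs against 21735 to 23755. Phlda2 in the same cycling class was 4.03, 2.04, 1.43, 1.28 and 1.21 times higher. The levels of 5 proliferation genes summed to 612 CPM with FGFRi and to 1169, 1239, 1357 and 1329 CPM in the other libraries, in the order opposite to Cdkn1c at the first step, and their part in the level of either gene was not tested.

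**Figure D5:**
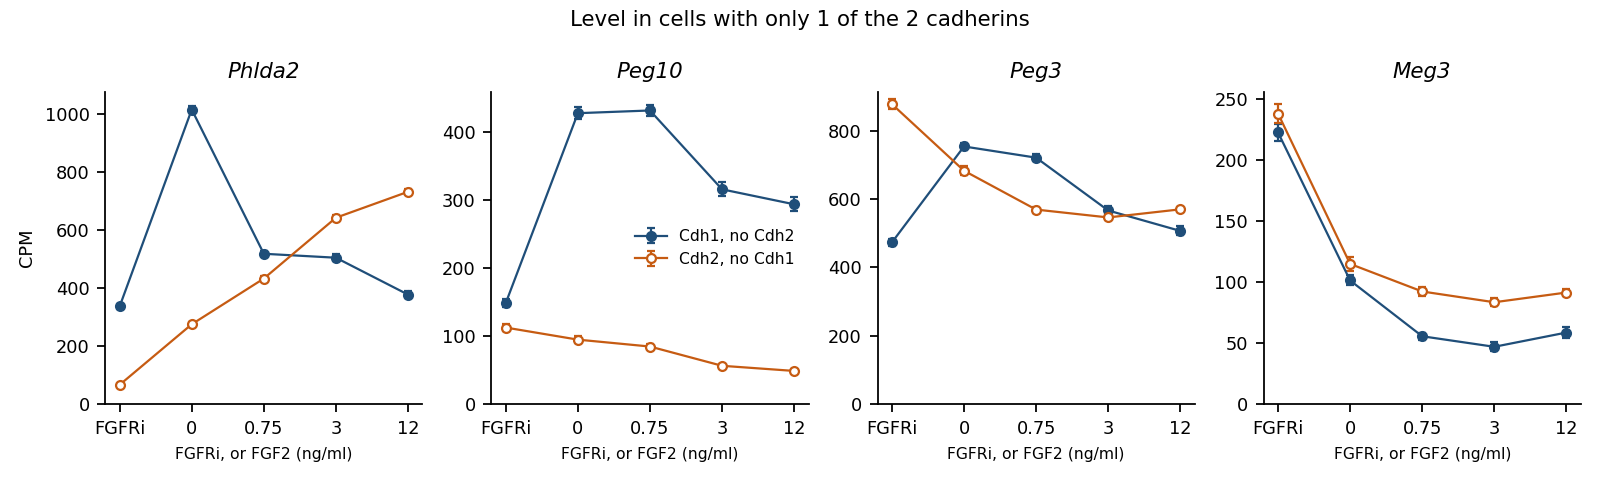
Levels in CPM (linear axis from 0) of Phlda2, Peg10, Peg3 and Meg3 in Cdh1-only cells and Cdh2-only cells, by library, FGFRi first and then FGF2 dose; bars are 95% counting intervals. The Phlda2 lines cross between 0.75 and 3 ng/ml FGF2, from 1015 against 276 CPM without FGF2 to 378 against 732 CPM at 12 ng/ml, and the Peg10 lines stay apart, with Cdh1-only cells higher in all 5 libraries (in 4 of them, not with FGFRi, when cells of at least 20 Phlda2 UMIs are left out).

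Peg10, a gene of retrotransposon origin that the placenta needs (chromosome 6, 4747306 to 4760517, plus strand), had 130.0, 279, 252, 142 and 118 CPM. It was highest without FGF2 and lower with the inhibitor and with the upper FGF2 doses alike. From FGFRi to no FGF2 the ratio was 2.15 (2.09 to 2.21), and from 0 to 12 ng/ml it was 0.423 (0.412 to 0.435), most of it between 0.75 and 3 ng/ml (0.565, 0.551 to 0.579). Peg10 was above all a gene of Cdh1-only cells: there it had 149, 428, 432, 316 and 294 CPM, and in Cdh2-only cells 113, 95.1, 85.0, 56.7 and 49.1 CPM. The ratio between the classes was 1.32 (1.24 to 1.40) with FGFRi and 4.50, 5.08, 5.58 and 5.99 (5.65 to 6.34) from 0 to 12 ng/ml. Without the cells of at least 20 Phlda2 UMIs the classes did not differ beyond counting error with FGFRi (111.3 and 110.6 CPM, 1.01, 0.941 to 1.08), and the other ratios were 3.44, 4.61, 5.78 and 6.16. From FGFRi to no FGF2 Peg10 was 2.87 times (2.75 to 3.00) as high in Cdh1-only cells and 0.843 times (0.784 to 0.906) in Cdh2-only cells. Over the FGF2 doses both classes had lower levels at 12 than at 0 ng/ml, at 0.687 and 0.516 times. Without the cells of at least 20 Phlda2 UMIs, Cdh1-only cells changed less, at 0.897 times (0.860 to 0.936), and Cdh2-only cells were at 0.502 times. The number of Cdh1-only cells went from 672 of 1679 thinned cells to 358 of 2397. In cells with a UMI of T, the primitive streak gene, Peg10 was at 0.273, 0.468, 0.513 and 0.511 of the level in other cells from 0 to 12 ng/ml. The levels of 5 epithelial genes summed to 2748, 2446, 1787, 1002 and 963 CPM over the series, and their part in the Peg10 level was not tested. Without the cells of at least 20 Phlda2 UMIs the Peg10 ratios were 1.96 and 0.534, both short of the 2-fold limit.

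Of the 5 listed neighbours in the imprinted cluster of Peg10, 2 reached 10 CPM, and neither changed 2-fold between the libraries compared. The sarcoglycan gene Sgce, read from a start next to that of Peg10 on the other strand, had 45.3, 39.3, 34.6, 30.6 and 29.4 CPM. It was lower at each step of the series, unlike Peg10. Ppp1r9a had 30.0, 36.9, 40.0, 35.1 and 27.4 CPM. Like Peg10, Ppp1r9a was higher without FGF2 than with FGFRi and lowest at the highest FGF2 dose. Its changes were smaller, and its highest level, 40.0 CPM, was not in the library without FGF2.

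Peg3, a zinc finger protein (chromosome 7, 6703892 to 6730431, minus strand), had 643, 713, 654, 544 and 544 CPM and was found in 87.8% to 94.7% of thinned cells. Its pooled ratio was 1.11 (1.09 to 1.13) from FGFRi to no FGF2 and 0.762 (0.752 to 0.773) from 0 to 12 ng/ml, and from 3 to 12 ng/ml it was 0.999 (0.984 to 1.01). The near level pooled value between FGFRi and no FGF2 joined a pair of opposite differences. In Cdh1-only cells Peg3 was at 473 CPM with FGFRi and 753 CPM without FGF2 (1.59 times, 1.55 to 1.64), and in Cdh2-only cells at 877 and 683 CPM (0.778 times, 0.758 to 0.799). With FGFRi it was therefore at 0.539 (0.525 to 0.555) in Cdh1-only relative to Cdh2-only cells, and in the other libraries at 1.10, 1.27, 1.04 and 0.889. Without the cells of at least 20 Phlda2 UMIs the value at 0 ng/ml FGF2 was 0.983 (0.957 to 1.01), while the opposite differences in the classes remained, at 1.55 and 0.779 times. Usp29, which starts beside Peg3, was at 17.6 to 20.2 CPM in all 5 libraries.

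Plagl1, a zinc finger transcription factor that regulates other imprinted genes (chromosome 10, 13060504 to 13131694, plus strand), had 29.0, 5.90, 4.35, 4.07 and 4.03 CPM. The ratio from FGFRi to no FGF2, 0.204 (0.180 to 0.230), was the furthest from 1 of the 10 genes, and from 0.75 ng/ml on neighbouring doses differed by no more than counting error. It was found in 18.9% of thinned FGFRi cells and in 5.18%, 3.95%, 4.49% and 3.46% of the others. With FGFRi it was higher in Cdh2-only than in Cdh1-only cells, at 45.8 against 15.9 CPM, and at 3 and 12 ng/ml the classes did not differ beyond counting error (1.39, 1.00 to 1.91, and 1.06, 0.743 to 1.49). Its neighbour Phactr2 had 18.5, 9.45, 8.63, 9.15 and 8.79 CPM. Dlk1, Cdkn1c and Plagl1 were highest with FGFRi, as was the sum of the mesenchyme markers given in the opening. At 12 ng/ml the 3 genes and that sum were below their levels without FGF2. The sum of 6 fibroblast genes was also highest with FGFRi, at 108 CPM. It was 34.9, 20.4, 23.7 and 33.0 CPM from 0 to 12 ng/ml, so it ended near its level without FGF2. The part of mesenchyme or fibroblast cells in the 3 levels was not tested.

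Grb10, an adapter that binds insulin and insulin-like growth factor receptors and restrains growth (chromosome 11, 11930508 to 12038683, minus strand), had 328, 234, 210.1, 200.1 and 186 CPM. It was lower at each step of the series, with ratios to the preceding library of 0.713 (0.697 to 0.730), 0.898, 0.952 and 0.931, and none of the steps reached 2-fold. It was the most evenly spread member of at least 50 CPM. Its ratio of Cdh1-only to Cdh2-only cells was 0.731, 0.755, 0.632, 0.653 and 0.728, below 1 throughout. Dlk1 shared that direction, with 0.711, 0.491, 0.543, 0.297 and 0.287, and so did Meg3, with 0.935, 0.882, 0.603, 0.564 and 0.642. For Meg3 the direction was lost with FGFRi (0.966, 0.923 to 1.01) and without FGF2 (0.998, 0.936 to 1.07) when cells of at least 20 Phlda2 UMIs were left out.

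Imprinted genes outside the 10 were counted from a list of 30. Of those at 50 CPM, 0 of 11 passed the rule from FGFRi to no FGF2 (6.46% of all genes), and 0 of 20 did at 10 CPM (7.99%). From 0 to 12 ng/ml 3 of 11 passed, all lower, beside 2.93% of all genes: Igf2, the fetal growth factor, at 272 and 75.3 CPM, Igf2r, the maternally read receptor that clears it, at 178 and 72.8 CPM, and Mest, a paternally read hydrolase, at 119 and 33.6 CPM. At 10 CPM 7 of 19 passed, all lower (4.04% of all genes), with H19, Airn, Slc38a4 and Sfmbt2 added. Among 21 genes next to the members, Ascl2 alone passed at 10 CPM, higher from FGFRi to no FGF2 (4.60 and 24.9 CPM, 1 of 7, beside 7.99% of all genes in either direction) and lower from 0 to 12 ng/ml (a ratio of 0.160, 1 of 6, beside 5.91%). The antisense RNA Kcnq1ot1, read from the paternal copy of the Kcnq1 locus, stayed at 3.63 to 4.31 CPM in all libraries. Where counting does not use the strand, which the sources used here do not state, reads of such antisense genes (Kcnq1ot1 within Kcnq1, Airn within Igf2r) and of the gene they overlap cannot be told apart.

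A list of 12 genes that maintain imprints or DNA methylation had 3 members at 50 CPM from FGFRi to no FGF2, of which Uhrf1, which brings the maintenance methyltransferase to replicating DNA, was higher (50.6 and 117 CPM, 1 of 3, beside 6.46% of all genes in either direction). That methyltransferase, Dnmt1, had 88.7 CPM with FGFRi and 146 to 154 CPM in the others. Zfp57, which protects imprints, had 22.2, 14.5, 10.6, 10.7 and 13.9 CPM, with its lowest levels at 0.75 and 3 ng/ml. At 10 CPM the dioxygenase Tet2 passed too, lower (11.9 and 5.84 CPM, 2 of 10 in all, beside 7.99%), and from 0 to 12 ng/ml 0 of 4 passed at 50 CPM (4.14% of all genes) and 0 of 9 at 10 CPM (5.91%).

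The genes whose levels over the 5 libraries ran most nearly parallel to a member's were sought among 3508 genes that reached 50 CPM in any library, by the root mean square difference of their centred log2 levels. For Meg3 they were Plin2 (0.014), Nradd (0.062) and Pdlim5 (0.069), for Rian Idh1, Rnf11 and Nfat5 (0.040 to 0.044), and for Grb10 Fat1, Tmeff1 and Gsk3b (0.021 to 0.023). Peg10 and Phlda2 had no such close match: the nearest were Sct, Espn and Id2 for Peg10 (0.206 to 0.243) and Id1, Mnd1 and Mcm5 for Phlda2 (0.213 to 0.230). With 5 points per gene, such likeness is a description only.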

How the data were processed

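Raw UMI counts per gene and barcode were deposited by the authors, 1 matrix per library, from 10x 3' v3.1 libraries of the deep sequencing run aligned to mm10. The matrix header names Cell Ranger 5.0.1 and the methods an earlier version. Barcodes with at least 2500 genes and at most 10% mitochondrial UMIs were kept, 10653 of 15375, as in the study's filter. No doublet filter was applied, and the methods describe none. Counts were summed per library and scaled to CPM with Python 3.11.15, NumPy 2.4.6, SciPy 1.17.1 and pandas 2.3.3; edgeR 4.0.16 gave the TMM alternative. Intervals are exact Poisson, conditional binomial (ratios) or Clopper-Pearson (shares). Gene positions came from a GENCODE release of GRCm38 that held 32158 of the 32285 gene IDs. Cells were thinned once to 10000 UMIs (seed 1). The rule of size, the ratio intervals and the thinning were tested on simulated counts. Genes were named if they were members or among the 3 nearest profiles. Genes of the fixed lists were named if they passed the rule of size (50 CPM, ratio 2). Some list genes that did not pass it, such as Sgce, Usp29 and Dnmt1, were also named with their levels. Genes named in cells with many Phlda2 UMIs came from the marker and imprinted lists. The members and lists were chosen with earlier results of these data known. With 1 library per condition, no test was run.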

Additional observations from a re-analysis of the deposited data

Results flagged for a closer look

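Barcodes left out by the filter, 4722 with a median of 1618.5 UMIs, held more of the maternal RNAs of the Dlk1-Dio3 locus than the retained cells: Meg3 192 CPM against 107, a ratio of 1.79 (1.71 to 1.87), Rian 62.6 CPM (1.92 times) and Mirg 11.0 CPM (2.22 times), each higher in 5 of 5 libraries. Cdkn1c, Grb10 and Peg3 were lower in the left-out barcodes in all 5 libraries, at 0.350 (0.255 to 0.469), 0.775 and 0.820 times. Peg3, Peg10 and Phlda2 differed in opposite directions in the cadherin classes. From FGFRi to no FGF2, Peg3 was 1.59 times as high in Cdh1-only cells and 0.778 times in Cdh2-only cells, and Peg10 2.87 and 0.843 times. From 0 to 12 ng/ml FGF2, Phlda2 was 0.372 times in Cdh1-only and 2.65 times in Cdh2-only cells, and without the cells of at least 20 Phlda2 UMIs it was higher in both, at 1.70 and 2.55 times. With 1 library per condition these differences between classes were not tested.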

How the results depend on the processing

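With 1 library per condition no paired analysis was possible because no 2 libraries of 1 condition exist, and the differences have no replicate check. Of the 50 log2 ratios of members over 5 pairs of libraries, 44 kept their sign under every alternative fixed at the start, and the 6 that did not were at most 0.10 in size. TMM scaling and removal of cells whose barcode occurs in another library left all 50 within their counting intervals. Other settings moved some of the 50 beyond them: 19 with each cell thinned to 10000 UMIs and 17 with each cell weighted equally. With at most 5% mitochondrial UMIs 11 moved, with all deposited barcodes 3, and with at least 4000 genes per cell 1. The counting intervals thus do not cover these choices of processing. The count of members past the rule between FGFRi and no FGF2 was 3, and it became 6 with a floor of 10 CPM, 4 with each cell weighted equally or thinned (Rian added), 2 with at most 5% mitochondrial UMIs (Meg3 lost) and 1 without the cells of at least 20 Phlda2 UMIs, a choice made after seeing the data, where only Phlda2 passed. Without those cells Meg3 (0.501) and Peg10 (1.96) fell just short of 2-fold. From 0 to 12 ng/ml FGF2 the count stayed at 1 without those cells, but it was Phlda2, higher, in place of Peg10, lower. With a ratio of 1.5 in place of 2, the count from FGFRi to no FGF2 became 4 (Rian added), that from 0 to 0.75 ng/ml went from 0 to 1 (Meg3) and that from 0.75 to 3 ng/ml from 0 to 1 (Peg10). Of 40 changes within a cadherin class, leaving out those cells reversed 1 whose interval lay off 1, Phlda2 in Cdh1-only cells from 0 to 12 ng/ml (0.372 to 1.70), and moved 7 others beyond their interval. For cells classed by the cadherins, T, Acta2, and Mki67 or Top2a, the libraries in which a member was higher in the class were counted. With classes set from all UMIs that count changed for 12 results and stayed for 28. With thinned classes and levels it changed for 14 and stayed for 26. How many libraries share a direction thus depends on how the classes were set. Depth limits Mirg, Dlk1, Cdkn1c and Plagl1, which were under 10 CPM in most libraries.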
